A study of Mus musculus with 6 samples.

Results

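The aldo-keto, carbonyl and quinone reductases and the microsomal epoxide hydrolase are enzymes that detoxify carbonyls, quinones and epoxides. The set holds 10 genes chosen by name, with earlier results of these data known. Of them, 9 had a probe set annotated to that gene alone, out of 18193 genes with such a probe set. Akr1b7, an aldo-keto reductase first known from the vas deferens, had none, so its expression is not analysed here. Its promoter window is among those compared below. The 9 genes had 12 probe sets, and each gene was read from its brightest probe set, judged by the mean of all 6 arrays.

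Expression was measured on Affymetrix arrays in macro-dissected mouse kidney epithelium, 1 array per sample. The Fh1 knockout group holds 3 samples of cystic epithelium from mice labelled deficient for fumarate hydratase, the enzyme that turns fumarate into malate in the tricarboxylic acid cycle. The wild-type group holds 3 samples from disease-free littermates, which the submitters describe as sex-matched. The labels give no age, strain, deleter allele or promoter, and leave open whether every sample came from its own mouse. The p-values therefore rest on sample-to-sample spread that could be technical.

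Aldo-keto reductases and carbonyl reductases use NADPH or NADH to turn reactive aldehydes and ketones, steroids and prostaglandins into alcohols. Nqo1 passes an electron pair from NAD(P)H to a quinone, which avoids the semiquinone radical. Ephx1 adds water to epoxides and so yields diols. Many of these genes are targets of NRF2, a transcription factor held down by KEAP1, and fumarate that builds up in cells without fumarate hydratase is known to modify KEAP1 cysteines. In the kidney several of the enzymes are abundant in the proximal tubule.

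Of the 9 measured genes, 5 were called higher in the knockout and 3 lower, and Cbr1 was not called. A call is an adjusted p under 0.05 from limma, a linear model with moderated variances, with Benjamini-Hochberg adjustment over all genes. Among all genes tested 21.6% were called higher and 27.7% lower, together 49.2%, so a call by itself does not set these genes apart. Lower genes made up 56.2% of all calls, and 67.0% when each array was centred on its median gene. For 8 of the 9 the 2 groups did not overlap, with the knockout higher in 5 and lower in 3. Over all genes 62.9% did not overlap, 25.7% with the knockout higher and 37.1% with it lower. The median log2 fold change of the 9 genes was 1.05, against -0.11 over all genes. Because the set was chosen with earlier results of these data known, this contrast is no independent comparison.

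Values are RMA expression on the log2 scale, on which a difference of 1 is a doubling. Levels of different genes come from different probes and are not compared. Fh1 itself read 12.41, 12.34 and 12.22 in wild-type 1 to 3 and 11.54, 11.60 and 11.61 in knockout 1 to 3. Fh1 transcript was thus lower but still measured in the knockout, with a log2 fold change of -0.74 (SE 0.08, limma adjusted p = 0.000396). Whether its probe set lies in the deleted part is not known here.

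Wild-type 2 stood apart from the other wild-type arrays. Xist, the RNA of the inactive X chromosome, read 11.96 in wild-type 2 and 6.38 and 6.25 in wild-type 1 and 3, against 7.97, 6.27 and 5.61 in knockout 1 to 3. The Y-linked genes went the other way, with Kdm5d at 4.38 in wild-type 2, 7.38 and 7.25 in the other wild-type samples and 7.86 to 8.05 in the knockout. High Xist with low Y-linked transcripts is the pattern of female tissue; it was seen in wild-type 2 and not in the other 5 arrays, although the samples are described as sex-matched. In wild-type 2, 154 genes lay more than 1 log2 unit from both other wild-type values, against 40 in wild-type 1 and 50 in wild-type 3. Results that rest on wild-type 2 are given with and without it.

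Transcripts of the Akr1c genes, which lie side by side on chromosome 13, did not move as a block. The promoters of 3 genes that were higher and of the gene that fell most are shown to let their sequences be compared. Along the chromosome the measured genes run Akr1c14, Akr1c18, Akr1c13, Akr1c19, Akr1c12, Akr1c6, Akr1c20, Akr1c21 and then Akr1e1. Akr1c13, Akr1c19 and Akr1c12, next to each other, were each called higher, and Akr1c14, Akr1c6, Akr1c21 and Akr1e1 were called lower. Akr1c6 was dim, with a wild-type mean of 5.16 and a knockout mean of 4.69, and was narrowly called (limma adjusted p = 0.0422). Without wild-type 2 it stayed lower (log2 fold change -0.67, limma adjusted p = 0.000953). Akr1c20, not called with all 6 arrays, was called higher without wild-type 2 (log2 fold change 0.53, limma adjusted p = 0.0241). It was also dim, with a wild-type mean of 5.88 and a knockout mean of 6.04. A still dimmer Akr1c20 probe set had a log2 fold change of -0.28 with all 6 arrays. That probe set was not called in the fit over all probe sets (limma adjusted p = 0.0508), so the direction for Akr1c20 is not settled. The windows hold 300 bases around the start site, most of them upstream, 5′ to 3′ along the gene, from RefSeq on GRCm38.p6. Capitals mark CATTAG or its reverse complement, a stretch picked after the sequences and the expression values were seen.

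Akr1c13 promoter, chr13:4190937-4191236, plus strand: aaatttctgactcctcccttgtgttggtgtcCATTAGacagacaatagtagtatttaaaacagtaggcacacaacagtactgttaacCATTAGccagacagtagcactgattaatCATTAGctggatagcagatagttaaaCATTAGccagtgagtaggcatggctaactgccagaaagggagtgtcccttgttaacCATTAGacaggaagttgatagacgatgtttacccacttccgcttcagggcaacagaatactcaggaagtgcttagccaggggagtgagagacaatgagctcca

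Akr1c12 promoter, chr13:4279350-4279649, minus strand: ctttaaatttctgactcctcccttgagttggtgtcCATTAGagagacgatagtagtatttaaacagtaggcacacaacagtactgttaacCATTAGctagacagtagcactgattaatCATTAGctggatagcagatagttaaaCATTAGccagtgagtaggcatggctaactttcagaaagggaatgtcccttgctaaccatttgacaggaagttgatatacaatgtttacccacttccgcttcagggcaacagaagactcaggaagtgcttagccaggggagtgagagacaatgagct

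Akr1c19 promoter, chr13:4233490-4233789, plus strand: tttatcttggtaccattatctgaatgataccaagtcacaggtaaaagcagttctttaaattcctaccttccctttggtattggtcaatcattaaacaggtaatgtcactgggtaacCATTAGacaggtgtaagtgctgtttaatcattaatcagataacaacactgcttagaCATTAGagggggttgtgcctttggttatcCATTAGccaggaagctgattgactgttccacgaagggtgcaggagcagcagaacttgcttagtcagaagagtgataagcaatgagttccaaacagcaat

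Akr1c14 promoter, chr13:4059341-4059640, plus strand: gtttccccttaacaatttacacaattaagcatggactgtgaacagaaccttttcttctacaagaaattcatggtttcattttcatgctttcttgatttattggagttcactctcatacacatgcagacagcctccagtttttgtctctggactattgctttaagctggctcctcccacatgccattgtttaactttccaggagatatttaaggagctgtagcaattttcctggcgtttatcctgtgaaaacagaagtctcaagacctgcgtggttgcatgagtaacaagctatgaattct

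The windows of Akr1c13 and Akr1c12 were 93.4% identical in a global alignment, those of Akr1c13 and Akr1c19 58.8%, and those of Akr1c12 and Akr1c19 56.7%. The other 117 pairs among 16 windows of these gene families and the remaining members ranged from 40.3% to 52.2%, with a median of 46.3%. The CATTAG stretch occurred 5 times in the Akr1c13 window, 4 times in that of Akr1c12 and 3 times in that of Akr1c19. It was absent from the Akr1c14 window and occurred 1 time each in those of Akr1c21 and Akr1c6. Of 32851 promoter windows of this length 7.36% held it at least 1 time, and 9 windows (0.0274%) held it 3 times or more. Those 9 include the Akr1c13, Akr1c12 and Akr1c19 windows, from which the stretch was picked, so the share is no independent comparison. The antioxidant response element core, TGACNNNGC on either strand, to which NRF2 binds with small Maf proteins, was in none of the 10 windows of the set and in 12.4% of all windows. Of the 4 windows printed, that of Akr1c19 held it 1 time. The AP-1 site TGACTCA, which overlaps that core where the next bases are GC, was in none of the 10 and in 5.2% of all. These letters were searched in 300 bases per gene, and elements farther away were not examined.

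**Figure D1:**
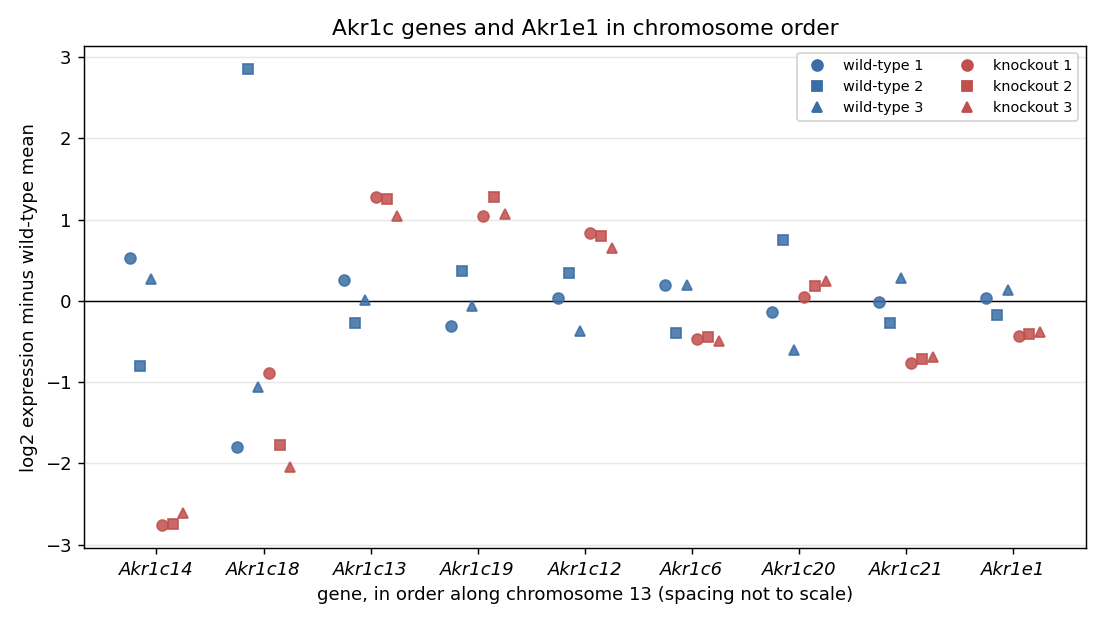
Expression of the Akr1c genes and Akr1e1 in each array, as log2 expression minus that gene's wild-type mean, with genes in chromosome order and spacing not to scale. Blue marks are wild-type and red marks knockout samples 1 to 3; the red marks of Akr1c13, Akr1c19 and Akr1c12 lie above all blue ones, those of Akr1c14 lie farthest below, and wild-type 2 stands apart for Akr1c18.

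Akr1b8, an aldo-keto reductase that reduces retinaldehyde and lipid aldehydes, showed the largest change of the set. It read 7.24, 7.51 and 6.67 in wild-type 1 to 3 and 11.18, 11.20 and 10.90 in knockout 1 to 3. The groups were far apart, with a 15.5-fold rise (log2 fold change 3.96, SE 0.20, limma adjusted p = 2.23e-05). Akr1b8 ranked 15 of 18193 genes by the size of its change. In bulk tissue, a change in the number of cells of a type and a change in RNA per cell cannot be told apart, here and below. Its chromosomal neighbour Akr1b10, also an aldose reductase-like gene, was not called (log2 fold change -0.22, SE 0.10) but was called lower without wild-type 2 (-0.30, limma adjusted p = 0.0400). Its 2 dimmer probe sets were called higher in the fit over all probe sets (1.81, limma adjusted p = 2.01e-05, and 0.70, limma adjusted p = 0.0178), so the direction for Akr1b10 depends on the probe set.

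Akr1c13, an aldo-keto reductase of xenobiotic alcohols and ketones, rose 2.28-fold. Its values were 9.36, 8.83 and 9.11 in wild-type 1 to 3 and 10.38, 10.36 and 10.14 in knockout 1 to 3. The groups did not overlap, and the log2 fold change was 1.19 (SE 0.14, limma adjusted p = 0.000527). Akr1c12 lies 1 gene farther along, beyond Akr1c19, and the annotation holds a probe set shared by Akr1c12 and Akr1c13, so signal from these transcripts may not be fully separated. That shared probe set, left out of the test, averaged 10.03 ± 0.17 (SD, n = 3) over the wild-type arrays. Its knockout mean was 11.11 ± 0.16 (SD, n = 3), a difference of 1.08.

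Akr1c14, a hydroxysteroid dehydrogenase that reduces dihydrotestosterone and other steroids, fell 6.53-fold, the largest decrease of the set. It read 11.63, 10.30 and 11.36 in wild-type 1 to 3 and 8.33, 8.34 and 8.48 in knockout 1 to 3. Wild-type 2 was the lowest wild-type value, yet lay above each knockout value. The log2 fold change was -2.71 (SE 0.30, limma adjusted p = 0.000391), and -3.11 without wild-type 2. The spread was 8.29 times wider among wild-type (SD 0.70) than among knockout samples (SD 0.08).

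Akr1c21, a hydroxysteroid dehydrogenase abundant in mouse kidney, was lower by a smaller margin. Its levels were 13.98, 13.72 and 14.27 in wild-type 1 to 3 and 13.22, 13.27 and 13.30 in knockout 1 to 3. The groups lay close together without overlap, a 1.65-fold decrease (log2 fold change -0.72, SE 0.14, limma adjusted p = 0.00400).

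Akr1a1, the aldehyde reductase that makes L-gulonate on the way to ascorbate in mice, was lower by an amount that differed between its probe sets. The brightest of its 4 probe sets read 14.44, 14.41 and 14.42 in wild-type 1 to 3 and 14.14, 14.14 and 14.18 in knockout 1 to 3. Knockout values were lower, by a log2 fold change of -0.27 (SE 0.07, limma adjusted p = 0.0187, a 1.20-fold difference). That call was lost without knockout 1 (adjusted p = 0.0680), knockout 2 (0.0613) or knockout 3 (0.0520) and after quantile normalisation (0.162). The other 3 probe sets, somewhat dimmer, gave log2 fold changes of -0.57, -0.62 and -0.54 and were each called in a fit over all probe sets (limma adjusted p = 0.000894 to 0.00171). All 4 probe sets were lower in the knockout, and the dimmer ones showed about a 1.5-fold difference (1.45-fold to 1.54-fold).

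**Figure D2:**
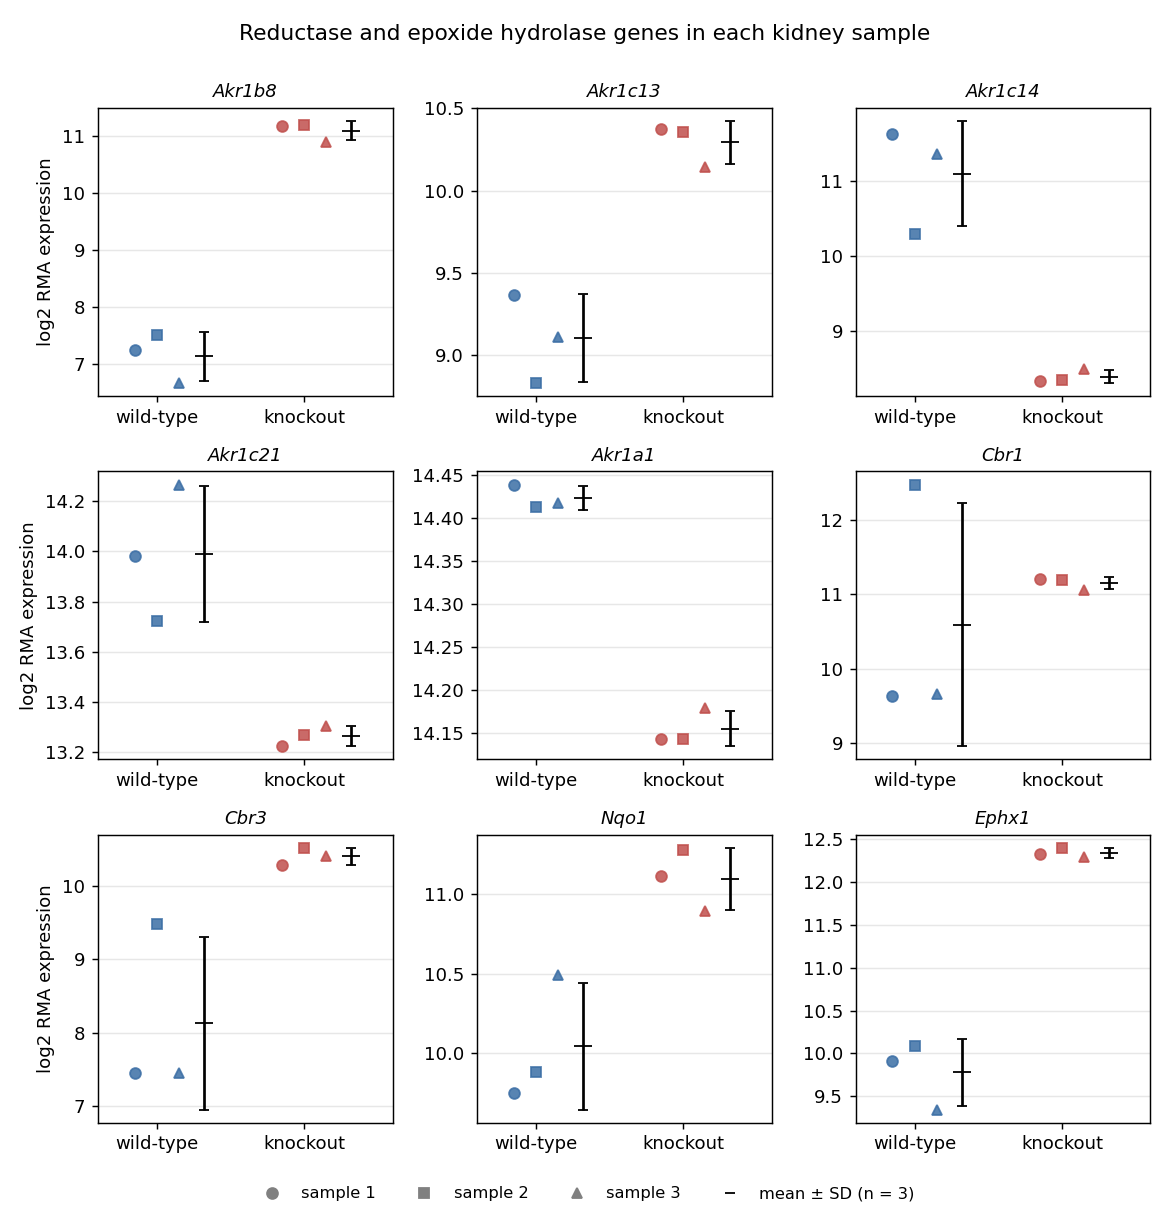
Log2 RMA expression of the 9 measured genes in 3 wild-type (blue) and 3 knockout (red) kidney samples, each panel with its own axis that does not start at 0; black bars show the mean ± SD (n = 3). Knockout samples cluster tightly, and wild-type 2 (square) lies far from the other wild-type samples for Cbr1 and Cbr3.

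The carbonyl reductases Cbr1 and Cbr3 are neighbours on chromosome 16 and shared the high value of wild-type 2. Cbr1 reduces prostaglandins, quinones and many drugs; Cbr3 is a close relative with a narrower range of known substrates. Cbr3 read 7.45, 9.48 and 7.45 in wild-type 1 to 3 and 10.28, 10.51 and 10.40 in knockout 1 to 3. Each knockout value lay above wild-type 2, and the rise was 4.84-fold (log2 fold change 2.27, SE 0.50, limma adjusted p = 0.00803). Without wild-type 2 it was 7.74-fold (log2 fold change 2.95, SE 0.10, limma adjusted p = 1.38e-05).

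Cbr1 was 9.64 and 9.66 in wild-type 1 and 3, 12.47 in wild-type 2, and 11.21, 11.19 and 11.05 in knockout 1 to 3. The knockout values thus lay between wild-type 2 and the other wild-type samples. With all 6 arrays Cbr1 was not called (log2 fold change 0.56, 95% interval -1.03 to 2.15, limma adjusted p = 0.507). Without wild-type 2 it was called higher, at 2.83-fold (log2 fold change 1.5, SE 0.09, limma adjusted p = 5.91e-05), and 6 of the 9 genes were then called higher and 3 lower, against 21.2% and 26.4% of all genes (47.7% together). The knockout mean was below wild-type 2 by 1.32 on the log2 scale for Cbr1 (a difference of -1.32) and above it by 0.92 for Cbr3.

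Of 18193 genes, 15 deviated more in wild-type 2 from the mean of wild-type 1 and 3 than Cbr1 did (2.82 on the log2 scale), and 47 more than Cbr3 (2.03). Akr1c18, which inactivates progesterone and is no member of the set, read 11.65 in wild-type 2 and 7.0 and 7.74 in wild-type 1 and 3, with 7.91, 7.03 and 6.76 in knockout 1 to 3. Akr1c14 went the other way, with a deviation of -1.20. The remaining 6 genes deviated by -0.41 to 0.55. Of 6 adipocyte markers 5 were measured, and each was highest among wild-type samples in wild-type 2. Adipoq read 6.65, 10.73 and 6.72 in wild-type 1 to 3 and 5.60, 4.32 and 10.30 in knockout 1 to 3. The median level of the 5 was 6.65, 7.55 and 6.72 in wild-type 1 to 3 and 5.60, 4.59 and 8.88 in knockout 1 to 3. The part of sex or of fat in the Cbr1 and Cbr3 values was not tested.

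**Figure D3:**
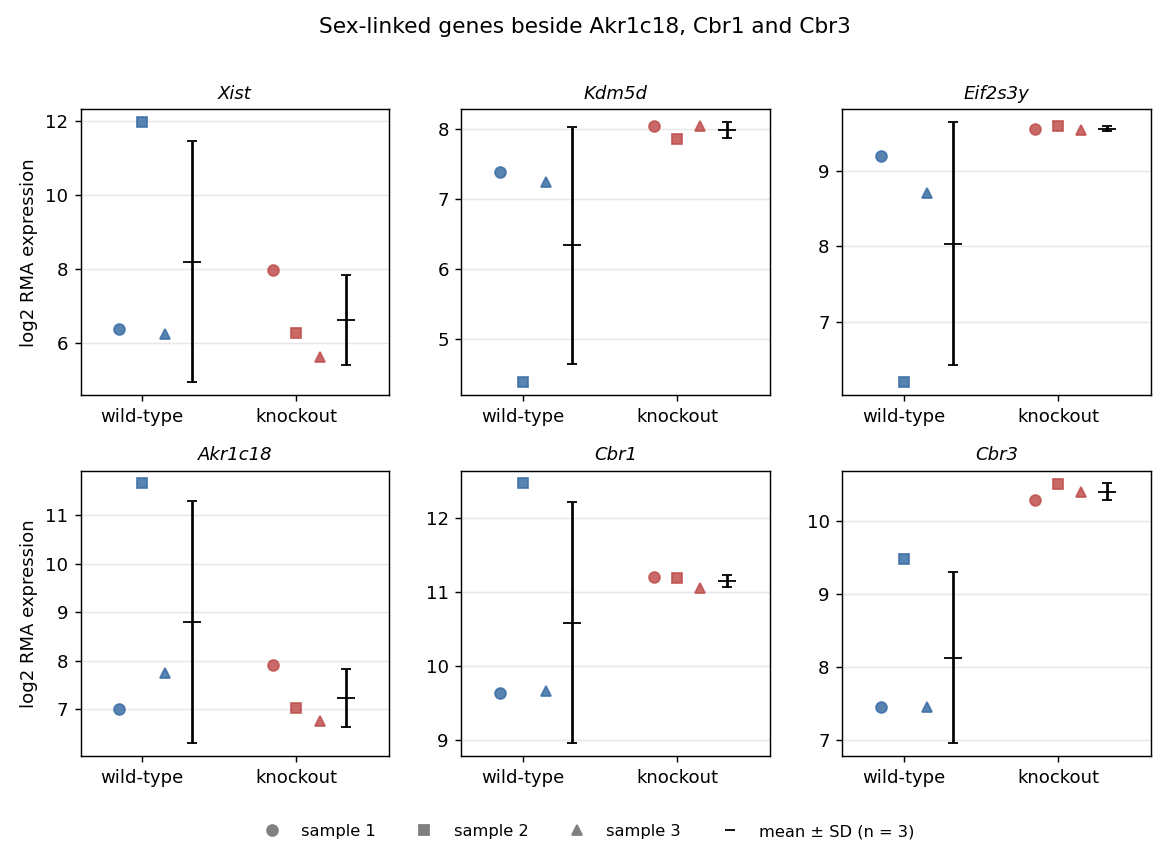
Log2 RMA expression of Xist, of the Y-linked genes Kdm5d and Eif2s3y, and of Akr1c18, Cbr1 and Cbr3 in 3 wild-type (blue) and 3 knockout (red) samples, with the mean ± SD (n = 3) in black and a separate axis in each panel that does not start at 0. Wild-type 2 (square) is the highest sample for Xist, Akr1c18 and Cbr1, the highest wild-type sample for Cbr3, and the lowest for Kdm5d and Eif2s3y.

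Nqo1, the quinone reductase widely used as a readout of NRF2, rose 2.08-fold. It read 9.75, 9.88 and 10.49 in wild-type 1 to 3 and 11.11, 11.28 and 10.89 in knockout 1 to 3. The highest wild-type sample, wild-type 3, was still below the lowest knockout sample, knockout 3. The log2 fold change was 1.05 (SE 0.20, limma adjusted p = 0.00412).

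Ephx1, the microsomal epoxide hydrolase, rose 5.90-fold. Its levels were 9.91, 10.08 and 9.34 in wild-type 1 to 3 and 12.33, 12.40 and 12.29 in knockout 1 to 3. The log2 fold change of 2.56 (SE 0.18, limma adjusted p = 5.30e-05) exceeded the wild-type SD of 0.39. Knockout values varied little, with an SD of 0.05.

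**Figure D4:**
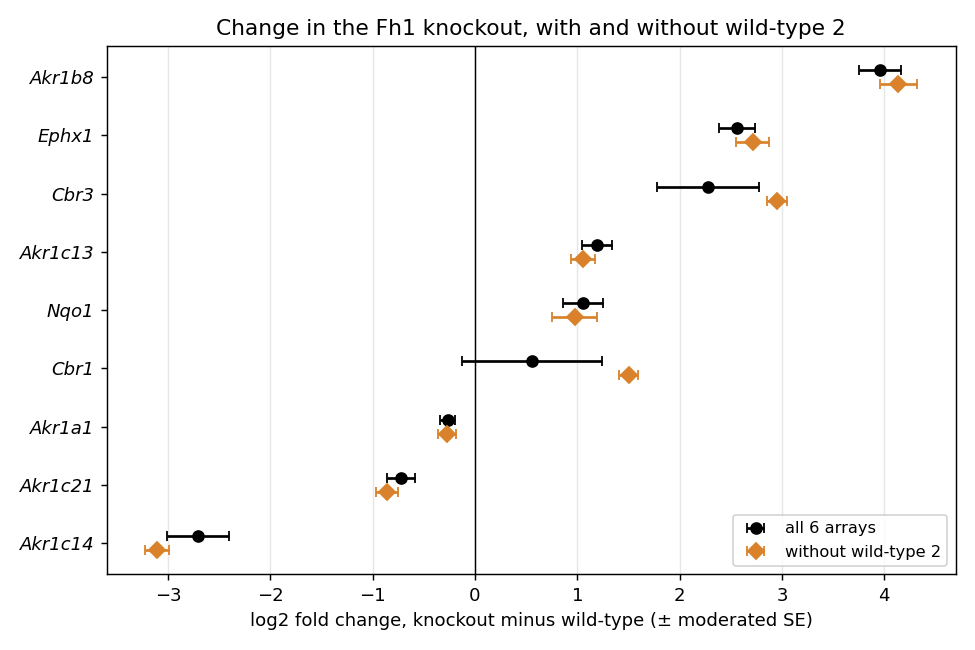
Log2 fold change, knockout minus wild-type, of each measured gene with its moderated SE, from all 6 arrays (black) and without wild-type 2 (orange). Leaving out wild-type 2 moves Cbr1 from 0.56 to 1.5, Cbr3 from 2.27 to 2.95 and Akr1c14 from -2.71 to -3.11. Every gene keeps its side of 0.

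Other enzymes of the same kind moved in both directions. Of 25 further aldo-keto, carbonyl, quinone and alkenal reductases and epoxide hydrolases, 24 were measured, 4 were called higher and 13 lower, with a median log2 fold change of -0.39. Over all genes 21.6% were higher and 27.7% lower, with a median of -0.11. The lists and markers, here and below, were chosen with earlier results of these data known. Their contrasts with all genes are therefore no independent comparison. Without wild-type 2 the counts were 5 and 14. Cbr2, a carbonyl reductase known from lung, rose 2.37-fold and Akr1c19 rose 2.19-fold; the remaining called-higher genes were Akr1c12 and Lta4h. Akr1d1, which reduces the steroid double bond in bile acid synthesis, fell 4.37-fold, and Dcxr, the dicarbonyl and xylulose reductase, fell 3.45-fold. The relatives of Nqo1 and Ephx1 did not follow them: Nqo2 fell 1.32-fold, and Ephx2, the soluble epoxide hydrolase, had a log2 fold change of -0.35 (SE 0.17, limma adjusted p = 0.112) and was called lower without wild-type 2 (-0.56, limma adjusted p = 0.00259). Nqo2 and Ephx2 were picked after their values were seen.

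Of 26 further NRF2 targets 25 were measured, and 14 were called higher and 3 lower, with a median of 0.36. Beside them stand the same 21.6% and 27.7% and the median of -0.11 over all genes, again no independent comparison. Without wild-type 2, 13 were higher and 5 lower; with arrays centred on the median gene 10 were higher and 3 lower, and with a replicate block 11 and 2. Aox1, aldehyde oxidase, rose 4.78-fold and Gsta4, the glutathione transferase of lipid aldehydes, 4.12-fold. Gsta4 was high in wild-type 2, and without it the log2 fold change went from 2.04 to 2.65 (limma adjusted p = 3.25e-05). The export pump Abcc2 fell 2.22-fold and Osgin1 2.12-fold, and the catalase gene Cat was the third called lower (log2 fold change -0.23, limma adjusted p = 0.0375; 0.0682 without wild-type 2). The regulators of the pathway had a median log2 fold change of 0.43. Nfe2l2, which encodes NRF2, rose 1.46-fold, Keap1 rose 1.37-fold and Bach1, a repressor of the same elements, rose too. Of 7 regulators 4 were called higher and none lower, with or without wild-type 2. The small Maf gene Maff rose 2.55-fold. Of 8 genes that supply NADPH or flavin cofactors, 6 were measured, 1 rose and 2 fell (1 and 3 without wild-type 2). Pgd, of the pentose phosphate pathway and also on the list of NRF2 targets, rose 2.98-fold, while Nnt, the mitochondrial transhydrogenase, fell 1.51-fold and Flad1, the FAD synthase, fell 1.46-fold.

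**Figure D5:**
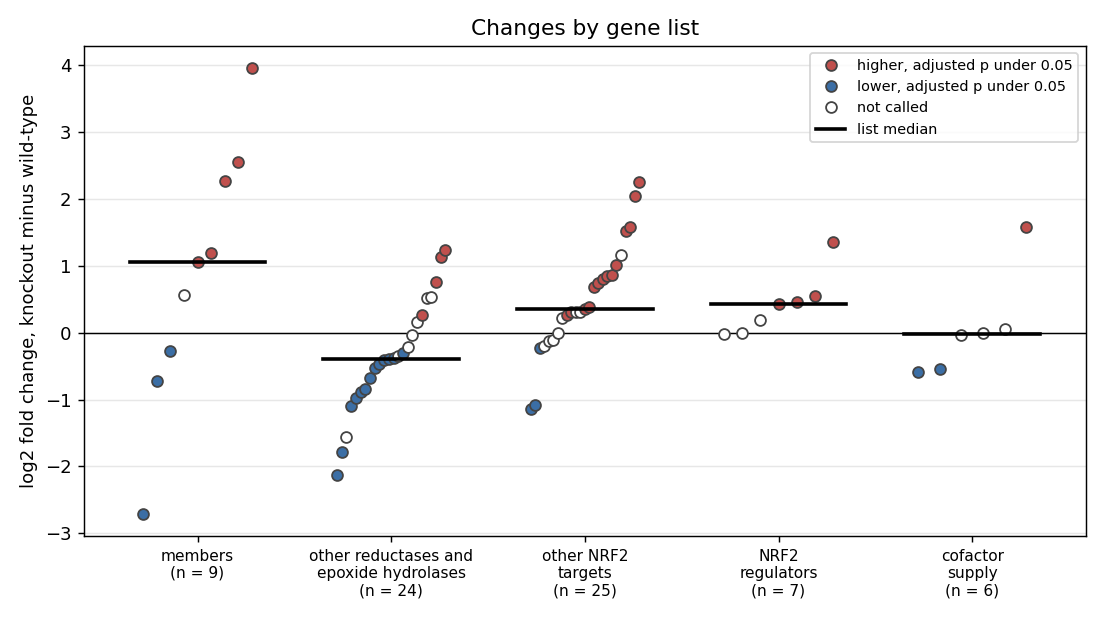
Log2 fold change, knockout minus wild-type, of every measured gene in 5 lists, with genes called higher in red, called lower in blue, not called in white, and the list median as a black line. The medians are 1.05 for the 9 genes of the set, -0.39 for the other reductases and epoxide hydrolases and 0.36 for the other NRF2 targets.

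Cell type markers moved in the same samples. Here a marker that rose or fell is one called higher or lower, beside 21.6% and 27.7% of all genes. Of 15 proximal tubule markers 14 fell, with a median log2 fold change of -1.56, and their median level was 12.39 to 12.68 in wild-type and 10.97 to 11.38 in knockout samples. Of 8 tubular injury markers 8 rose (median 3.16; level 6.87 to 7.89 against 11.07 to 11.21). Of 12 immune markers 10 rose (median 1.79; 7.56 to 8.28 against 9.73 to 10.16), and of 10 fibroblast and matrix markers 7 rose (median 1.65; 8.33 to 8.93 against 8.98 to 9.86). Akr1c14, Akr1c21 and Akr1a1 fell beside the proximal tubule markers. Akr1b8, Ephx1, Cbr3, Akr1c13 and Nqo1 rose beside the injury, immune, and fibroblast and matrix markers. The part of cell composition in these changes was not tested. Markers of other cell types fell in the same samples: 7 of 9 for distal nephron and collecting duct (median -0.74), 5 of 7 for endothelium (-0.70) and 4 of 4 for erythrocytes (-1.12). Adrenal cortex markers, relevant to steroid-handling reductases, had median levels of 5.16 to 5.63 in wild-type and 4.84 to 5.0 in knockout samples, and of the 8 none rose and 2 fell. Without wild-type 2, 6 fibroblast and matrix markers rose, 6 distal nephron and collecting duct markers fell and 3 adrenal cortex markers fell. The other counts of this paragraph stayed the same. No marker can be called absent, because these values carry no detection call.

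The genes with the most similar profile over the 6 arrays differed between members. Likeness was the Euclidean distance between profiles centred on each gene's mean, a description over 6 samples. Nearest to Akr1b8 was Cd44, a hyaluronan receptor, at a distance of 0.24 log2 units, followed by Basp1 (0.43) and Slc25a24 (0.57). Akr1c14 was nearest to Slc22a22, an organic anion transporter (0.21), and then Car4, a membrane carbonic anhydrase (0.37), and Clec2h (0.50). Cbr1 was nearest to Slc7a12, an amino acid transporter (0.61), and Abcc3, an export pump (0.77), then Gbp3 (0.85). Cbr3 was nearest to Gsta4 (0.47), then Fgb, a fibrinogen chain (0.77), and Arg2, the mitochondrial arginase (0.82). Slc7a12 read 12.52 in wild-type 2 against 10.06 and 10.03 in wild-type 1 and 3, the shape also seen for Cbr1. Ephx1 was nearest to Adgrg6 (0.14), Ptgfrn (0.16) and Sox4 (0.25), and Nqo1 to Ccl5 (0.26), Ccnb2 (0.28) and Ajuba (0.30). Akr1c13 was nearest to Rpl22l1 (0.12), Cxcr4 (0.14) and Cep192 (0.16). Akr1c21 was nearest to Cda, Fbxo21 and Tbc1d10a (0.085 to 0.094), and Akr1a1 to Bpifa1, Rab1a and Atp6v0d1 (0.036 to 0.053). Distances are shorter for genes that vary less, so they are not compared between members.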

How the data were processed

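The study hybridised column-purified, biotin-labelled total RNA of 3 Fh1 knockout and 3 wild-type kidney samples to Affymetrix arrays, per the labels' protocols. The authors deposited log2 expression values of 45101 probe sets, made with RMA per the submitters' processing notes; no RMA version or chip definition is stated in those notes. Values ran from 2.90 to 14.8, which is how the scale was recognised. RMA corrects background, normalises between arrays and gives no detection call. Folds of dim genes can be compressed.

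Probe sets with exactly 1 gene (34945) were named from the platform annotation of 2016, with symbols updated through RefSeq of GRCm38.p6; 932 probe sets with several genes, 9160 with none and 64 controls were left out of the test. Each of 18193 genes took its brightest probe set by mean. Groups were compared with limma 3.58.1 (R 4.3.3; lmFit, eBayes, two-sided, no filter, no covariate). With 3 arrays per group, their number limits the precision. On simulated data of 18193 genes this fit called 24 of 50 genes with a simulated log2 change of 0.5, 49 of 50 with a change of 1 and 50 of 50 with a change of 2. The simulation gave both groups the same spread for each gene and changed only a small share of genes. In the data 49.2% of genes were called and wild-type 2 stood apart, so these counts do not carry over to the data.

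The members, lists and markers were chosen with earlier results of these data known. Named were the members, the 2 called genes of largest change per direction in each list, and the 3 nearest profiles per member. Outside that rule, Keap1, Bach1, Cat, Akr1c12, Lta4h, Nqo2, Ephx2, Akr1b10, Akr1c18 and Adipoq were named after their values were seen. So were the other genes of the chromosomal clusters. Promoter windows were aligned with Biopython 1.88. Alternatives were other probe set rules, a brightness filter, a trended prior, other normalisations, array weights, a replicate block, a stricter threshold and each array left out.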

Additional observations from a re-analysis of the deposited data

How the results depend on the processing

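Across 15 alternatives, the results of the 9 genes were read again 135 times. The stricter threshold, the fit over all probe sets, the brightness filter, the trended prior and the replicate block leave the log2 fold change as it was. The mean over probe sets changes it for Akr1a1 only. In these cases the sign could not change, and only the call could. Of the 135 results, 128 kept their direction and side of the threshold, 6 lost a call, 1 gained one and 0 changed sign. The 6 were all of Akr1a1: at an adjusted p of 0.01 (log2 fold change -0.27, adjusted p = 0.0187), after quantile normalisation (-0.14, adjusted p = 0.162), with a replicate block (-0.27, adjusted p = 0.0638), and without knockout 1, 2 or 3. Leaving out 1 array at a time gave Akr1a1 -0.28 to -0.26. The gained call was Cbr1 without wild-type 2 (1.5); over the arrays left out Cbr1 ranged from 0.086 to 1.5. The cause was not tested. Among the added alternatives, the count of other NRF2 targets called lower moved from 3 to 5 without wild-type 2. Same-numbered wild-type and knockout samples did not deviate together (r across genes -0.10, -0.13 and -0.13). These values cannot settle whether the numbers pair samples, because deviations from a mean of 3 arrays are tied to each other. The replicate block left 7440 genes called, against 8959. No depth exists for arrays, and signal over background is not given in these values.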

Other observations

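Aldose reductase-like and epoxide-handling relatives were measured by probe sets that did not always move together. Of the 24 other reductase and epoxide hydrolase genes 11 had several probe sets; in 1, Lta4h, probe sets were called in opposite directions. Lta4h, which makes leukotriene B, was called higher from its brightest probe set (log2 fold change 0.26), while a dimmer one gave -0.58 and another 0.41. Akr1b10, the neighbour of Akr1b8, was not called from its brightest probe set with all 6 arrays; without wild-type 2 it was called lower (log2 fold change -0.30, limma adjusted p = 0.0400). Another Akr1b10 probe set read 6.75, 6.71 and 6.83 in wild-type 1 to 3 and 8.71, 8.45 and 8.55 in knockout 1 to 3, a 3.51-fold rise (limma adjusted p over all probe sets = 2.01e-05), and the dimmest gave a log2 fold change of 0.70. Which of these reports the Akr1b10 transcript is not known here.

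Akr1d1 was lower in both of its probe sets, with log2 fold changes of -2.13 and -2.67. Nqo2 was lower in each of its 3 probe sets (-0.40, -0.91 and -0.60), opposite to Nqo1.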
